A study of Mus musculus with 38 samples.

Results

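The genes described here are 33 enzymes and carriers that burn fatty acids in mitochondria and peroxisomes, chosen by name and not by their values. They comprised 7 genes of the carnitine shuttle, 7 acyl-CoA dehydrogenases, 8 genes of the later steps of the cycle, 3 genes of electron transfer, 6 peroxisomal genes and 2 thioesterases. All 33 were found in each of the 4 count tables, among 55487 genes in the culture and brain tables and 57126 in the tumour and miRNA tables.

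The study asked how exosomes, small vesicles that cells release, from insulin resistant adipocytes act on triple-negative breast cancer. RNA of 38 mouse libraries in 10 groups was sequenced, in 4 experiments built on 4T1, a mouse mammary adenocarcinoma line. The culture experiment held 4T1 cells in 3 groups of 3 libraries: untreated, given exosomes of insulin sensitive (IS) adipocytes or given exosomes of insulin resistant (IR) adipocytes, and exosome treatment lasted 72 h. The adipocytes were differentiated from 3T3-L1, a single mouse pre-adipocyte line. The brain experiment held 5 control, 5 IS and 5 IR libraries of a brain clonogenic assay, in which tumour cells of a tissue are grown out as colonies, and the primary tumour experiment held 4 control and 5 IR libraries. For these, the labels name only the group, with no mouse strain, age, route or number of animals. The miRNA experiment held 2 libraries titled as scrambled miRNA and 3 titled as miR-145a-3p. There the library names run against the titles: those of the scrambled samples begin with miR145 and those of the miR-145a-3p samples with ScRNA. Which of the groups received the miRNA therefore cannot be told from the labels, and every direction in that experiment is given as titled.

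Library totals ran from 8455412 to 13272583 counts in the culture and brain experiments and from 17392887 to 32637552 counts in the tumour and miRNA experiments. Tests were run within an experiment, since each has a count table of its own. Levels are CPM, read counts scaled to a common library size over the tested genes, and a level is compared only within a gene, since CPM do not allow for gene length. Fold changes and their standard errors (SE) are those of edgeR's quasi-likelihood test, and a gene was called at a Benjamini-Hochberg adjusted p of 0.05 over all genes tested. The brain libraries carry 4T1 in their labels, but the epithelial adhesion gene Epcam reached only 2.00 ± 0.983 CPM in control, 0.979 ± 0.963 CPM in IS and 0.913 ± 0.475 CPM in IR (SD, n = 5 each). Untreated 4T1 cells had 179 ± 12.2 CPM (n = 3). The summed level of 8 epithelial marker genes was 121 to 255 CPM over the 15 brain libraries and 3660 to 3670 CPM in untreated 4T1 cells. The tumour libraries had sums of 3110 to 6590 CPM.

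Long-chain fatty acids enter mitochondria as carnitine esters. Carnitine palmitoyltransferase 1 on the outer membrane makes the ester and is the step that malonyl-CoA, the first intermediate of fatty acid synthesis, holds back. Inside, the cycle of dehydrogenation, hydration, further dehydrogenation and thiolysis shortens the chain, while peroxisomes shorten very long and branched chains first. Many of these genes are known targets of the fatty acid sensing PPAR receptors and of the oestrogen related receptor Esrra.

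Promoters of the 4 members with the largest fold changes under IR exosomes are shown because these genes rose together in culture. Each run covers 250 bases before and 50 bases after the transcription start, 5′ to 3′ on the gene's own strand, from RefSeq (GRCm38.p6), and capitals mark the hexamer AGGTCA or its reverse complement, the core element read by many nuclear receptors.
Cpt1a, chr19:3323051-3323350, plus strand: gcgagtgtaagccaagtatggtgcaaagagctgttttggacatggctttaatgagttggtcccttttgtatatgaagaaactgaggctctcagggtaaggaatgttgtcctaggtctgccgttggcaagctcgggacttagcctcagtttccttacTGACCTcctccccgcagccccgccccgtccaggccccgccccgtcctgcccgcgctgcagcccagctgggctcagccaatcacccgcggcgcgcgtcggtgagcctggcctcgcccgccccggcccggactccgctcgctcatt
Acot1, chr12:84009252-84009551, plus strand: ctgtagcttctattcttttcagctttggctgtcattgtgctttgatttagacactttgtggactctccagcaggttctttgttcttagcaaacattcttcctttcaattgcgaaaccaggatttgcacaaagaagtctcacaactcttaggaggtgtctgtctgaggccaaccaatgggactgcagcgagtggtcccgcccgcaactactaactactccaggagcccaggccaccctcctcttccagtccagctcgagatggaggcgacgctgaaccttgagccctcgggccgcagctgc
Acadl, chr1:66863260-66863559, minus strand: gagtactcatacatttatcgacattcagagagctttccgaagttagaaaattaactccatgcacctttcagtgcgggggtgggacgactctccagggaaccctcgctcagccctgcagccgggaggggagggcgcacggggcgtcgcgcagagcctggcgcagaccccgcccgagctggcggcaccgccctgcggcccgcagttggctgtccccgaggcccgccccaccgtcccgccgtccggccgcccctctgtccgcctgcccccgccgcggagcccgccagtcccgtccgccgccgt
Slc25a20, chr9:108661886-108662185, plus strand: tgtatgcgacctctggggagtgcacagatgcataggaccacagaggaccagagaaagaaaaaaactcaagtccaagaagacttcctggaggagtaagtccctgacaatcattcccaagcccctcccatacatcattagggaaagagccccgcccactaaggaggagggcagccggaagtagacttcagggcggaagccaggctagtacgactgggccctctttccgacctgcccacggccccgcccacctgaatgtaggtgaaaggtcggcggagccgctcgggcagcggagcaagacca

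Of these promoters only that of Cpt1a held the hexamer, on the reverse strand with its first base at -94 from the start. Promoters were found for 28 of the 33 members, the others being Hsd17b4, Acad9, Acaa2, Decr1 and Cpt1b. AGGTCA, read on both strands, was in 5 of the 28 (17.9%), those of Cpt1a, Cpt1c, Acadm, Acadvl and Echs1, against 16.3% of all 32851 promoters. Its direct repeat with 1 base of any kind between the copies, the pattern of PPAR sites, was in 0 of 28 and in 0.0396% of all promoters, and TCAAGGTCA, the pattern of Esrra sites, read likewise on both strands, was in 0 of 28 and in 0.423% of all promoters. Both longer patterns contain the hexamer. The absence of these letters says only that they are not in these windows.

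In culture many members rose with both kinds of exosomes. With IR exosomes 14 of the 31 members tested were higher and 0 lower than in untreated cells, and edgeR called 13.6% of all 10888 genes tested in either direction, 6.67% higher and 6.90% lower. With IS exosomes 15 members were higher and 1 lower, where 19.3% of all genes were called, 9.97% higher and 9.32% lower. The median log2 fold change of the members was 0.26 with IR and 0.32 with IS exosomes, and that of all genes was 0.00 in both. The libraries of the exosome and the untreated group did not overlap for 18 members with IR exosomes, against 30.2% of all genes, and for 20 members with IS exosomes, against 36.8%. Both comparisons used the same 3 untreated libraries. The 7 adipocyte markers were all at 0 in untreated cells, and their sum was 0 to 0.244 CPM with IS and 0 to 0.0982 CPM with IR exosomes. Cpt1b and Ehhadh were below the filter of 3 CPM in at least 3 libraries in culture. Acot1, counted among the members called higher with each kind of exosome, passed this filter only through the exosome groups, where it is high.

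**Figure D1:**
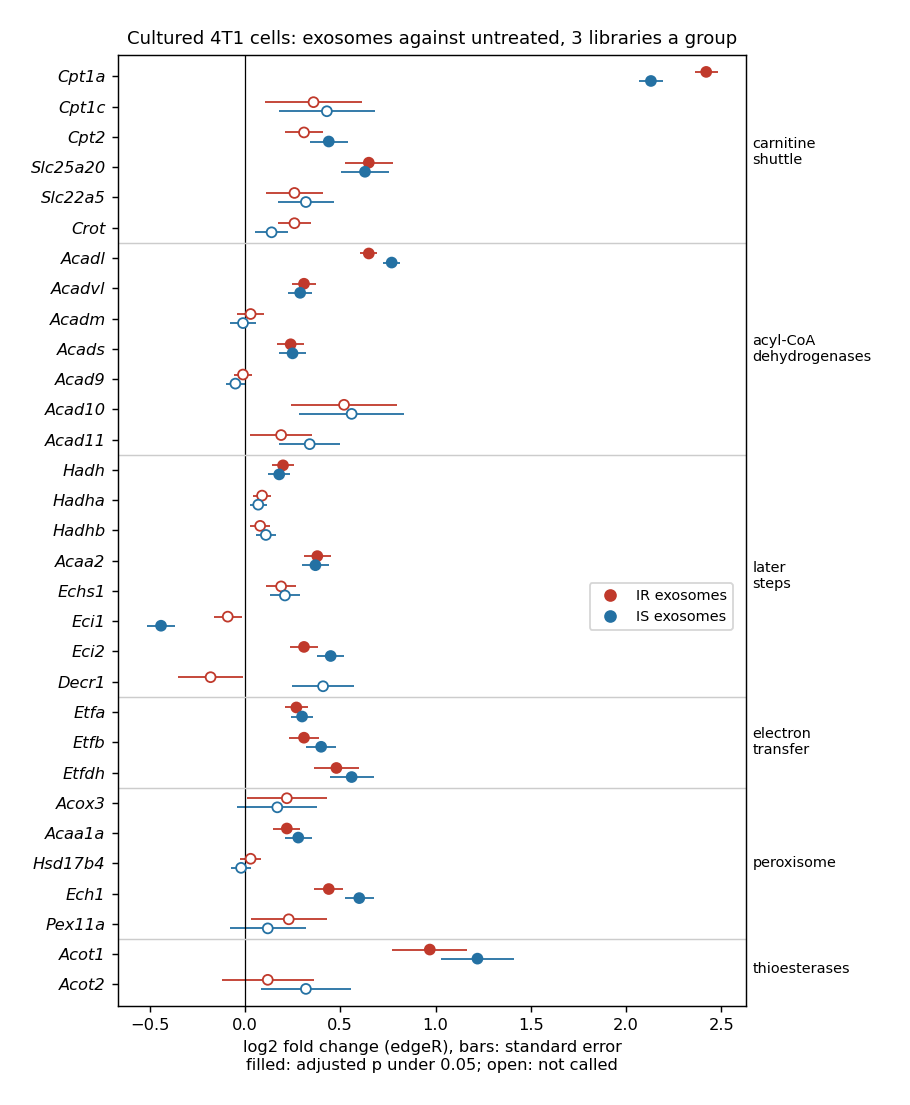
Log2 fold changes of the 31 tested members in cultured 4T1 cells given IR (red) or IS (blue) exosomes, each against untreated cells, with 3 libraries a group, ordered by step. Bars are standard errors, filled points were called and open points were not; Cpt1a stands at 2.42 and 2.13, and Eci1 is the 1 member called lower, with IS exosomes.

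The carnitine shuttle held the largest change. Cpt1a (ENSMUSG00000024900), the carnitine palmitoyltransferase 1 of most tissues, was at 19.8, 18.5 and 20.2 CPM in untreated cells, 89.5, 84.3 and 82.5 CPM with IS exosomes and 105, 108 and 102 CPM with IR exosomes. The 3 groups did not overlap. The rise was 5.36-fold with IR (log2 2.42 ± 0.0601, SE, adjusted p = 4.69e-14) and 4.37-fold with IS exosomes (log2 2.13 ± 0.0609, adjusted p = 3.16e-13). IR stood 1.23-fold above IS (log2 0.30 ± 0.0496, adjusted p = 0.00248).

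Slc25a20, the carrier that exchanges acylcarnitine for carnitine across the inner membrane, was at 9.05 ± 0.875 CPM untreated, 14.0 ± 0.774 CPM with IS and 14.2 ± 1.72 CPM with IR exosomes (SD, n = 3 each). It rose 1.57-fold with IR (adjusted p = 0.00237) and 1.55-fold with IS exosomes (adjusted p = 0.00221). Cpt2, which returns the acyl group to coenzyme A in the matrix, was at 17.5 ± 0.520 CPM untreated, 23.5 ± 2.67 CPM with IS and 21.7 ± 1.85 CPM with IR exosomes (SD, n = 3 each). Both exosome groups lay above the untreated cells. Cpt2 rose 1.35-fold with IS exosomes (log2 0.44 ± 0.0999, adjusted p = 0.00569). With IR exosomes its log2 change was 0.31 ± 0.101, and it was not called (adjusted p = 0.0502, and 0.0407 without IR library 2). The carnitine importer Slc22a5 (log2 0.26 with IR and 0.32 with IS exosomes), the peroxisomal carnitine octanoyltransferase Crot (0.26 and 0.14) and Cpt1c, the brain form of carnitine palmitoyltransferase 1 (0.36 and 0.43), were not called against untreated cells. Crot was called with IR exosomes without untreated library 1 (adjusted p = 0.0378). Cpt1c was low, at 3.14, 2.09 and 3.76 CPM in untreated cells, 3.33, 4.23 and 4.74 CPM with IS and 4.32, 2.83 and 4.59 CPM with IR exosomes, and the groups overlapped.

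Cpt1b (ENSMUSG00000078937), the muscle form, was near 0 in culture, with 0, 0.991 and 0 CPM in untreated cells, 0.812, 0.469 and 0.388 CPM with IS and 0.0982, 0 and 0 CPM with IR exosomes. In the brain libraries it was the member with the largest fold change. Control libraries had 16.5, 12.2, 14.8, 17.5 and 15.8 CPM, IS libraries 30.7, 28.6, 28.2, 24.3 and 23.6 CPM and IR libraries 29.1, 24.0, 36.3, 29.5 and 24.5 CPM. Every IS and IR library lay above every control library. Cpt1b was 1.86-fold higher in IR (log2 0.90 ± 0.127, adjusted p = 0.000622) and 1.76-fold higher in IS (log2 0.81 ± 0.127, adjusted p = 0.00126) than in control libraries.

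Transcripts of Cpt1b share 81% of their 31-base words with the gene Gm44502, so reads of both may be split between them. Gm44502 was at 1.02 ± 0.858 CPM in control, 0.731 ± 0.538 CPM in IS and 0.957 ± 0.774 CPM in IR brain libraries (SD, n = 5 each). Because this form is typical of muscle, muscle markers are given beside it: 7 skeletal muscle markers summed to 3.51 to 7.13 CPM in control, 2.15 to 7.09 CPM in IS and 1.07 to 4.82 CPM in IR brain libraries. The sum of 5 cardiac markers was 0.745 to 1.85, 1.40 to 3.94 and 1.26 to 2.57 CPM in the same order. That of 6 pericyte and smooth muscle markers, all above 1 CPM, was 798 to 1160, 493 to 1320 and 428 to 930 CPM. The part of these cells in the level of Cpt1b was not tested. Cpt1a, in contrast to its rise in culture, was at 389, 394, 426, 383 and 361 CPM in control, 315, 371, 403, 383 and 359 CPM in IS and 389, 347, 356, 405 and 338 CPM in IR brain libraries. These groups overlapped (log2 -0.09 ± 0.0749 in both comparisons, adjusted p = 0.493 for IR and 0.511 for IS). Cpt1c was at 67.1, 64.9, 61.9, 60.7 and 66.8 CPM in control, 87.3, 78.6, 57.0, 54.8 and 60.0 CPM in IS and 72.7, 84.9, 72.1, 62.8 and 67.4 CPM in IR brain libraries, also overlapping and not called.

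**Figure D2:**
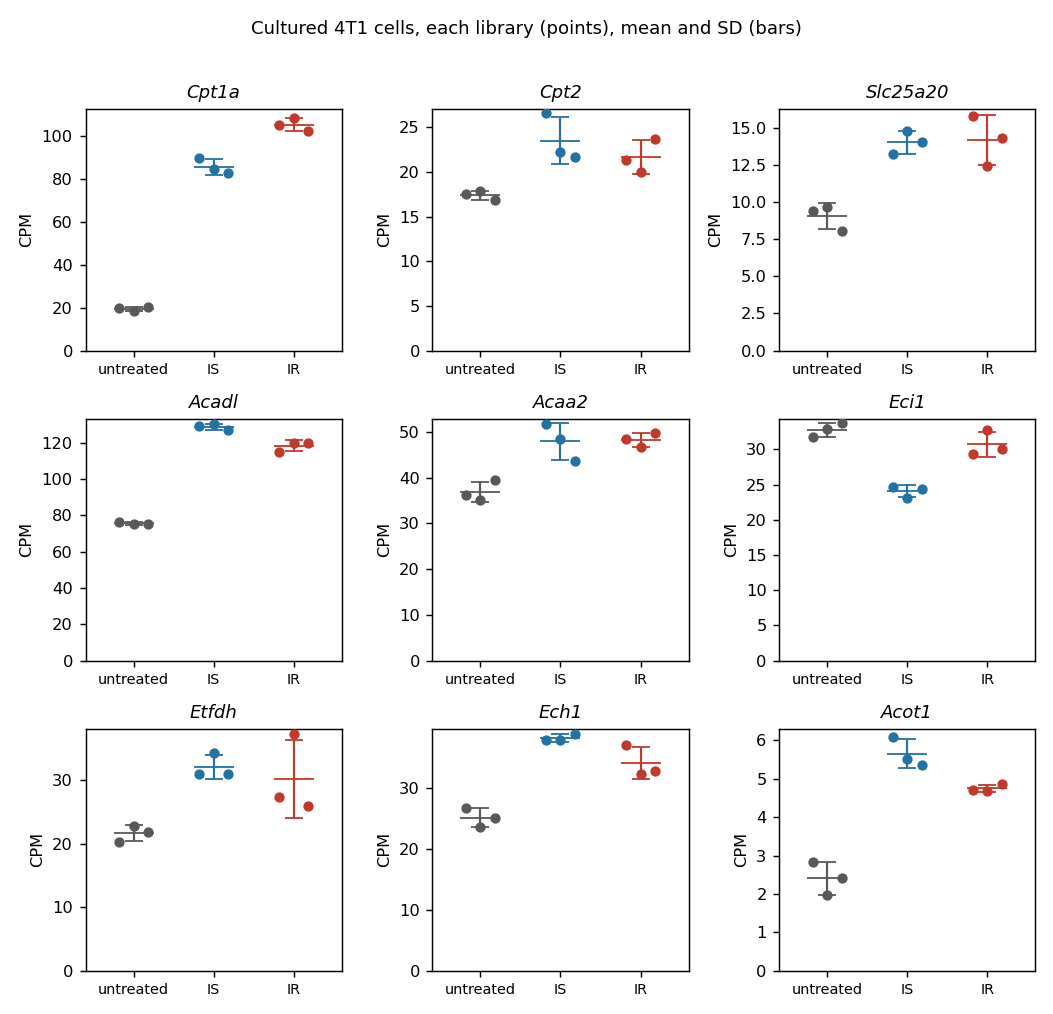
Levels in CPM (vertical axes from 0) of 9 members in each cultured library, as points, with the mean and SD of each group of 3 as bars, for untreated cells, IS exosomes and IR exosomes. Cpt1a separates all 3 groups, from 18.5 to 20.2 CPM untreated to 102 to 108 CPM with IR exosomes, while Eci1 is lowest with IS exosomes.

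In the brain experiment few members were called. In IR against control libraries 6 of 33 were higher and 0 lower, with 11.7% of all 12924 genes called, 6.45% higher and 5.27% lower. In IS against control libraries 2 were higher and 0 lower, with 6.46% of all genes called, 3.37% higher and 3.10% lower, so the share of members, 6.06%, was near that of all genes. Libraries did not overlap for 4 members in each comparison, against 11.8% of all genes for IR and 7.81% for IS. Both comparisons used the same 5 control libraries. The median log2 fold change of the members was 0.09 in IR and 0.14 in IS.

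Summed markers of other cell types differed between the brain groups as well. All 6 endothelial markers exceeded 1 CPM in every group, and their sum was 101 to 144 CPM in control, 131 to 615 CPM in IS and 380 to 794 CPM in IR libraries, so that IR and control did not overlap. The sum of 8 macrophage and microglia markers was 457 to 640 CPM in control, 209 to 915 CPM in IS and 101 to 351 CPM in IR libraries, with 6, 6 and 5 of the 8 above 1 CPM and none at 0, and IR lay below control. All 6 astrocyte markers exceeded 1 CPM, and their sum was 122 to 159 CPM in control, 178 to 256 CPM in IS and 114 to 213 CPM in IR libraries, so that IS and control did not overlap. The astrocyte sum is not particular to astrocytes, since untreated 4T1 cells had 287 to 301 CPM with 1 of the 6 markers above 1 CPM. The lymphocyte list rested on Ptprc, a gene of all leukocytes, the 1 of 7 above 1 CPM, and summed to 32.5 to 72.2 CPM in control, 16.9 to 69.4 CPM in IS and 6.69 to 30.9 CPM in IR libraries. The hepatocyte list rested on Ttr, also a choroid plexus gene, the 1 of 5 above 1 CPM, and summed to 236 to 1050 CPM in control, 1070 to 3330 CPM in IS and 686 to 1610 CPM in IR libraries. Their part in the differences of the members was not tested. In bulk libraries fewer cells of a type and less RNA per cell cannot be told apart.

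**Figure D3:**
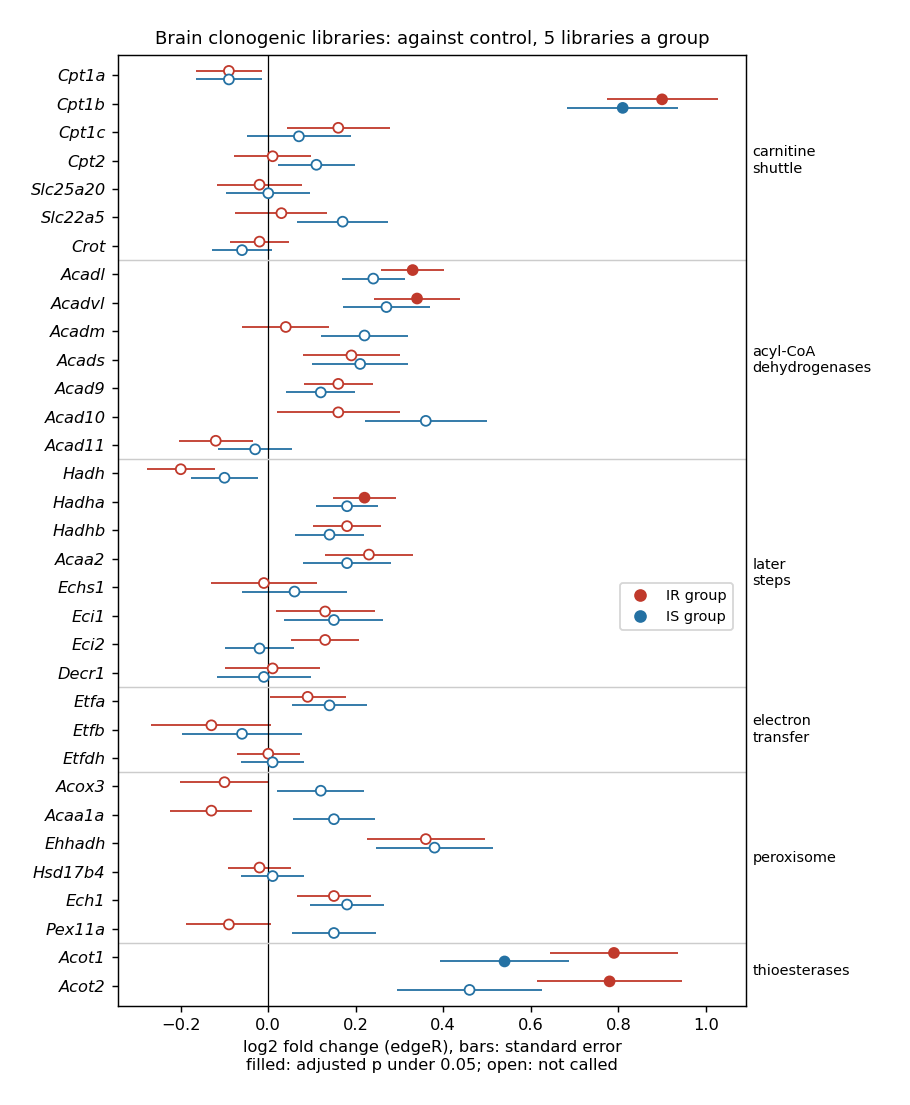
Log2 fold changes of all 33 members in the brain clonogenic libraries, IR (red) and IS (blue) against control, 5 libraries a group, ordered by step. Bars are standard errors and filled points were called: Cpt1b and Acot1 in both comparisons, and Acot2, Acadl, Acadvl and Hadha in IR.

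Among acyl-CoA dehydrogenases, which take the first pair of electrons from the fatty acyl chain, 3 of 7 rose with each kind of exosome in culture. Of all genes, 6.67% were called higher with IR and 9.97% with IS exosomes. Acadl, the long-chain enzyme, was at 76.4, 75.2 and 75.1 CPM in untreated cells, 129, 130 and 127 CPM with IS and 115, 120 and 120 CPM with IR exosomes. No groups overlapped. It rose 1.57-fold with IR (log2 0.65 ± 0.0444, adjusted p = 3.29e-08) and 1.70-fold with IS exosomes (log2 0.77 ± 0.0442, adjusted p = 3.54e-09), and IR against IS was not called (log2 -0.12 ± 0.0426, adjusted p = 0.116).

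In the brain, Acadl was at 155, 151, 153, 153 and 140 CPM in control, 188, 166, 184, 164 and 187 CPM in IS and 206, 159, 201, 192 and 187 CPM in IR libraries. All IS and IR libraries lay above all control libraries. The rise was 1.26-fold in IR (log2 0.33 ± 0.0722, adjusted p = 0.00768). For IS it was not called (log2 0.24 ± 0.0721, adjusted p = 0.0533), while DESeq2 gave 0.0135 and leaving out IS library 2 gave 0.0427.

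Acadvl, the very long-chain enzyme of the inner membrane, was at 54.4, 55.6 and 51.7 CPM in untreated cells, 65.4, 65.0 and 66.8 CPM with IS and 73.8, 64.9 and 61.5 CPM with IR exosomes. Both exosome groups lay above the untreated cells and overlapped each other (log2 0.31 ± 0.0639 and adjusted p = 0.00374 with IR, 0.29 ± 0.0638 and 0.00434 with IS). In brain libraries it was at 184, 194, 220, 187 and 196 CPM in control, 286, 219, 219, 217 and 239 CPM in IS and 224, 211, 303, 258 and 245 CPM in IR. Both the IS and the IR group overlapped the control group there. IR was called higher (log2 0.34 ± 0.0989, adjusted p = 0.0352), though not without control library 1 (0.08), 2 (0.0721), 4 (0.0816) or 5 (0.0678) and without IR library 3 (0.0946), 4 (0.0537) or 5 (0.0569). Acadvl overlaps the antisense gene Dvl2, which was not called in any culture or brain comparison.

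Acads, the short-chain enzyme, was at 41.4 ± 1.78 CPM untreated and 49.0 CPM in both exosome groups (SD 3.95 for IS and 3.24 for IR, n = 3 each). It was called higher with IR (log2 0.24, adjusted p = 0.0313) and with IS exosomes (log2 0.25, adjusted p = 0.0192). The IR call was lost without untreated library 2 (0.119) or 3 (0.0763) or IR library 2 (0.126) or 3 (0.0858), and with DESeq2 (0.0591). The IS call was lost without untreated library 2 (0.079) or 3 (0.0504) or IS library 1 (0.0807) or 3 (0.091).

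The medium-chain enzyme Acadm and Acad9, also an assembly factor of respiratory complex I, were not called in culture. Acadm had log2 0.03 with IR and -0.01 with IS exosomes. Acad9 was at 83.5, 80.4 and 78.8 CPM untreated, 76.9, 76.6 and 80.3 CPM with IS and 77.7, 82.3 and 80.8 CPM with IR exosomes, with all groups overlapping. Acad10 (2.85 to 4.17 CPM as group means, log2 0.52 and 0.56) and Acad11 (6.94 to 8.85 CPM, log2 0.19 and 0.34) were not called. In the brain none of these 4 members nor Acads was called. Acad9 was at 29.6 to 33.7 CPM in control, 31.8 to 38.2 CPM in IS and 32.4 to 39.7 CPM in IR brain libraries.

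The later steps of the cycle rose in part. Acaa2, the thiolase that ends the cycle, was at 36.2, 35.2 and 39.4 CPM in untreated cells, 51.7, 48.4 and 43.7 CPM with IS and 48.5, 46.7 and 49.7 CPM with IR exosomes. Every exosome library lay above the untreated ones. Acaa2 rose 1.31-fold with IR (log2 0.38 ± 0.0710, adjusted p = 0.00148) and 1.29-fold with IS exosomes (log2 0.37 ± 0.0709, adjusted p = 0.00151). In the brain Acaa2 was at 62.8 to 77.0 CPM in control, 62.1 to 93.6 CPM in IS and 69.6 to 88.1 CPM in IR libraries and was not called.

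The 2 enoyl-CoA isomerases, which shift double bonds of unsaturated chains, parted in culture. Eci2 was at 30.2, 30.4 and 31.2 CPM in untreated cells, 38.1, 43.8 and 44.3 CPM with IS and 38.1, 38.2 and 37.9 CPM with IR exosomes. It rose 1.24-fold with IR (log2 0.31 ± 0.0713, adjusted p = 0.00702) and 1.37-fold with IS exosomes (log2 0.45 ± 0.0704, adjusted p = 0.000252). Eci1 was at 31.7, 32.9 and 33.7 CPM untreated, 24.7, 23.1 and 24.3 CPM with IS and 29.3, 32.7 and 30.1 CPM with IR exosomes. The IS libraries lay below all others, and IR and untreated libraries overlapped. Eci1 fell 1.36-fold with IS exosomes (log2 -0.44 ± 0.0744, adjusted p = 0.000511) and was not called with IR exosomes (log2 -0.09). IR was 1.27-fold above IS (log2 0.35 ± 0.0743, adjusted p = 0.0117), a call lost without IR library 2 (0.0508).

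Decr1, the dienoyl-CoA reductase that serves polyunsaturated chains, was at 5.76, 5.84 and 5.28 CPM untreated, 7.15, 7.98 and 7.37 CPM with IS and 5.40, 5.40 and 4.04 CPM with IR exosomes. IS libraries lay above all others. IR was 1.51-fold below IS (log2 -0.60 ± 0.162, adjusted p = 0.0403), while neither was called against untreated cells. The call was lost without IS library 1 (0.0763), 2 (0.0989) or 3 (0.0978), without IR library 2 (0.0656) or 3 (0.139) and with DESeq2 (0.0872). Fitting only the 2 groups compared lost it too (0.0599).

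Hadh, the short-chain hydroxyacyl-CoA dehydrogenase, was at 61.7 ± 0.409 CPM untreated, 70.4 ± 4.94 CPM with IS and 70.9 ± 2.80 CPM with IR exosomes (SD, n = 3 each). It was called higher with IR (log2 0.20, adjusted p = 0.0266) and IS exosomes (log2 0.18, adjusted p = 0.031). The IR call was lost without any 1 of the 3 untreated libraries (0.0687 to 0.0744) or IR library 2 (0.0985) or 3 (0.0726). The IS call was lost without any 1 of the untreated libraries (0.0736 to 0.0783) or IS library 2 (0.13) or 3 (0.0577). DESeq2 gave 0.0578 for IR and 0.0692 for IS.

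The trifunctional protein subunits Hadha and Hadhb (log2 0.07 to 0.11 over both) and the hydratase Echs1 (log2 0.19 with IR and 0.21 with IS exosomes) were not called in culture. Echs1 was called with IS exosomes without IS library 3 (adjusted p = 0.0363). Transcripts of Hadhb share 61.2% of their 31-base words with Gm13910, so its reads may be split. In the brain Hadha was at 281, 265, 296, 291 and 251 CPM in control, 309, 324, 318, 305 and 309 CPM in IS and 339, 275, 352, 341 and 310 CPM in IR libraries. It was called higher in IR (log2 0.22 ± 0.0710, adjusted p = 0.0492). IR and control overlapped through IR library 2, and the call was lost without any 1 control or IR library other than IR library 2 (0.0531 to 0.126). For IS all libraries lay above control with no call (log2 0.18 ± 0.0710, adjusted p = 0.154).

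All 3 genes of electron transfer, which pass electrons from the acyl-CoA dehydrogenases to ubiquinone, rose with both kinds of exosomes. Over all genes the shares called higher were 6.67% with IR and 9.97% with IS exosomes. Etfdh, the oxidoreductase in the membrane, was at 20.3, 22.8 and 21.8 CPM in untreated cells, 31.0, 34.3 and 30.9 CPM with IS and 27.4, 37.2 and 26.0 CPM with IR exosomes. It rose 1.40-fold with IR (log2 0.48 ± 0.117, adjusted p = 0.0104) and 1.48-fold with IS exosomes (log2 0.56 ± 0.116, adjusted p = 0.00263). Over the alternatives the IR value ran from log2 0.30 to 0.58 and was called in each. IR library 2, the highest for Etfdh, had 0.0961% of counts in mitochondrially encoded genes, against 0.281% to 0.651% in the other culture libraries. The part of this in the level of Etfdh was not tested. Etfa, the alpha subunit of the flavoprotein, was at 84.1, 76.1 and 83.6 CPM untreated, 100, 97.2 and 102 CPM with IS and 95.2, 105 and 93.1 CPM with IR exosomes (log2 0.27 ± 0.0591 and adjusted p = 0.00575 with IR, 0.30 ± 0.0590 and 0.00197 with IS).

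Etfb, the beta subunit, was at 25.3, 25.2 and 24.6 CPM in untreated cells, 33.2, 31.9 and 33.9 CPM with IS and 30.2, 28.9 and 34.1 CPM with IR exosomes. For all 3 genes every exosome library lay above every untreated library. Etfb rose 1.24-fold with IR (log2 0.31 ± 0.0784, adjusted p = 0.0131) and 1.32-fold with IS exosomes (log2 0.40 ± 0.0776, adjusted p = 0.00159). The IR call was lost without untreated library 3 (0.0526) or IR library 3 (0.0734). Transcripts of Etfb share 62% of their 31-base words with Gm45233, so its reads may be split. In the brain none of the 3 was called (log2 -0.13 to 0.14). Etfdh was at 85.8 to 95.3 CPM in control and 75.0 to 96.9 CPM in IR brain libraries.

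Of the peroxisomal genes, Ech1 and Acaa1a rose in culture. Ech1, a dienoyl-CoA isomerase found in both organelles, was at 26.7, 23.7 and 25.2 CPM in untreated cells, 37.9, 37.9 and 39.0 CPM with IS and 37.2, 32.4 and 32.9 CPM with IR exosomes. Groups did not overlap. It rose 1.35-fold with IR (log2 0.44 ± 0.0770, adjusted p = 0.00098) and 1.52-fold with IS exosomes (log2 0.60 ± 0.0758, adjusted p = 3.07e-05). IR against IS was not called (log2 -0.17, adjusted p = 0.184).

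Acaa1a, the peroxisomal thiolase, was at 42.3, 36.6 and 41.2 CPM in untreated cells, 49.1, 45.8 and 50.1 CPM with IS and 48.9, 43.4 and 48.1 CPM with IR exosomes. Every exosome library lay above the untreated ones. It was called higher with IR (log2 0.22 ± 0.0700, adjusted p = 0.0456) and IS exosomes (log2 0.28 ± 0.0696, adjusted p = 0.0105). The IR call was lost without untreated library 2 (0.181) or 3 (0.0797) or IR library 1 (0.118) or 3 (0.154), and with DESeq2 (0.0946). Fitting only the 2 groups compared lost it as well (0.0673). The IS call was lost without untreated library 2 (0.0567) or IS library 3 (0.0556). Its transcripts share 35.3% of their 31-base words with Acaa1b, which was at 0.977 ± 0.344 CPM in untreated cells.

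Hsd17b4, the bifunctional hydratase and dehydrogenase of peroxisomes, was at 57.0, 60.9 and 61.4 CPM in untreated cells, 61.4, 60.0 and 56.2 CPM with IS and 60.1, 62.8 and 59.9 CPM with IR exosomes, and all groups overlapped (log2 0.03 and -0.02). Acox3, an acyl-CoA oxidase, and Pex11a, which divides peroxisomes, were at 4.32 to 5.14 CPM as group means and were not called. Ehhadh, the other bifunctional enzyme of the peroxisome, had 4 counts in 1 untreated library and 0 in the rest. Over the 3 libraries of a group a count of 0 allows a level of up to 0.0890 CPM with IS and 0.0926 CPM with IR exosomes, counting error only. In the brain no peroxisomal member was called. Ehhadh was at 12.3, 11.6, 9.79, 10.6 and 8.71 CPM in control, 12.2, 11.7, 16.0, 16.0 and 13.1 CPM in IS and 16.4, 12.1, 14.3, 13.4 and 12.0 CPM in IR brain libraries (log2 0.38 ± 0.134 for IS and 0.36 ± 0.135 for IR, adjusted p = 0.105 and 0.0906).

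Of the thioesterases, which release fatty acid from coenzyme A, Acot1 was called in culture and in the brain. In these experiments Acot2 was called only in brain IR libraries. The 2 genes share sequence, so reads of both may be split between them. Acot1 (ENSMUSG00000072949), the cytosolic enzyme, was at 2.83, 1.98 and 2.42 CPM in untreated cells, 6.09, 5.52 and 5.36 CPM with IS and 4.71, 4.69 and 4.86 CPM with IR exosomes. The groups did not overlap. Acot1 rose 1.96-fold with IR (log2 0.97 ± 0.196, adjusted p = 0.003) and 2.33-fold with IS exosomes (log2 1.22 ± 0.191, adjusted p = 0.000268). No untreated library reached 3 CPM, so Acot1 passed the filter only through the exosome groups, where it is high. Acot2, its mitochondrial neighbour, was at 4.15, 6.94 and 3.40 CPM in untreated cells, 5.85, 4.58 and 7.14 CPM with IS and 5.11, 5.49 and 4.86 CPM with IR exosomes, all overlapping, and was not called (log2 0.12 and 0.32).

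Acot1 and Acot2 share 28.9% and 29.9% of their 31-base words with each other. Counted together as 1 gene, an alternative chosen after seeing the data, they had log2 0.47 with IR exosomes, which was not called (adjusted p = 0.0606), and 0.69 with IS exosomes, which was (adjusted p = 0.00427). In the brain Acot1 was at 42.9, 30.5, 40.6, 32.5 and 30.9 CPM in control, 60.2, 63.8, 47.2, 43.0 and 44.3 CPM in IS and 65.2, 48.0, 75.5, 51.8 and 66.0 CPM in IR libraries. Every IS and IR library lay above the control libraries. Acot1 was 1.73-fold higher in IR (log2 0.79 ± 0.147, adjusted p = 0.00286) and 1.46-fold higher in IS (log2 0.54 ± 0.147, adjusted p = 0.0346). The IS call was lost without control library 2 (0.0917), 4 (0.0832) or 5 (0.0867) or IS library 1 (0.0629) or 2 (0.0709).

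Acot2 was at 34.9, 26.3, 37.3, 29.8 and 34.1 CPM in control, 33.8, 56.7, 50.0, 41.2 and 42.1 CPM in IS and 56.6, 38.0, 77.3, 53.7 and 53.9 CPM in IR brain libraries. IR lay above control in every library and was 1.72-fold higher (log2 0.78 ± 0.165, adjusted p = 0.00606). IS overlapped control and was not called (log2 0.46 ± 0.165, adjusted p = 0.108). Both genes together gave log2 0.79 for IR (adjusted p = 0.00198) and 0.51 for IS (adjusted p = 0.0371) in the brain.

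Few members differed between IR and IS exosomes in culture. Besides Cpt1a and Eci1, higher with IR, and Decr1, lower, none of the 31 members was called, a share of 9.68% against 6.27% of all genes (2.82% higher and 3.45% lower). The median log2 difference was -0.03, and 7 members did not overlap, against 26.6% of all genes. In the brain, IR against IS called 0 of 33 members, where edgeR called 0.0464% of all genes. At an unadjusted p under 0.05 there were 3 members and 18.1% of all genes. DESeq2 and the alternatives of edgeR with all libraries also called 0 members. Without IS library 2, 1 member, Acaa1a, was called lower in IR (adjusted p = 0.0156, against 0.121 with all libraries).

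In the primary tumours no member was called between IR and control. By edgeR 0 of 31 members passed, and 0 of all 12962 genes. At an unadjusted p under 0.05 there were 2 members and 7.65% of all genes. DESeq2 called 124 genes, 0 of them members. Members ran from log2 -0.24 to 0.60 with a median of 0.00. Cpt1a was at 56.8, 67.2, 72.6 and 41.1 CPM in control and 94.7, 75.2, 81.1, 66.0 and 55.2 CPM in IR tumours, overlapping (log2 0.33 ± 0.197, adjusted p = 0.793). Acot1 was at 4.42, 2.42, 5.05 and 3.95 CPM in control and 5.88, 4.49, 5.51, 6.62 and 7.61 CPM in IR tumours, overlapping (log2 0.60 ± 0.266, adjusted p = 0.645). Acadl was at 144, 107, 138 and 140 CPM in control and 145, 132, 168, 179 and 183 CPM in IR tumours (log2 0.29 ± 0.134, adjusted p = 0.666). Cpt1c, at 6.82, 5.74, 7.45 and 8.95 CPM in control and 7.23, 7.57, 5.94, 7.51 and 9.32 CPM in IR tumours, and Acot2, at 4.15, 5.99, 5.91 and 5.80 CPM and 5.64, 6.86, 6.73, 7.33 and 4.71 CPM, overlapped too. Tumours varied far more than cultured cells, with a biological coefficient of variation of 0.326 against 0.0576.

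Cpt1b in tumours stood apart in single libraries. It was at 0, 2.13, 0.585 and 1.65 CPM in control and 0.840, 1.84, 2.44, 22.6 and 5.12 CPM in IR tumours and was below the filter. The same IR libraries 4 and 5 carried skeletal muscle RNA: 7 muscle markers summed to 11200 CPM and 1640 CPM there, against 8.69 to 17.9 CPM in the other IR tumours and 13.9 to 216 CPM in control tumours. The part of muscle in the level of Cpt1b was not tested. Adipocyte markers, 7 of 7 above 1 CPM in both groups, summed to 190 to 471 CPM in control and 32.8 to 793 CPM in IR tumours. Fibroblast markers summed to 3490 to 6560 CPM in control and 6060 to 12000 CPM in IR tumours.

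**Figure D4:**
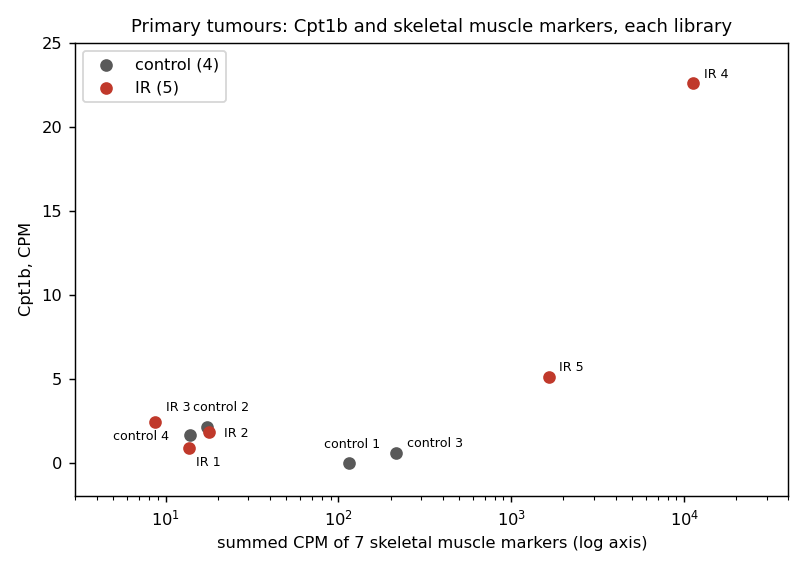
Cpt1b in CPM (vertical axis) against the summed CPM of 7 skeletal muscle markers (horizontal log axis) in each of 4 control (grey) and 5 IR (red) tumour libraries. IR 4, at 22.6 CPM, and IR 5, at 5.12 CPM, are the libraries with the highest muscle sums, and the others lie at or below 2.44 CPM.

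In the miRNA experiment the members moved in both directions. Between the libraries titled miR-145a-3p and those titled scrambled, 7 of 29 members were higher and 7 lower, 48.3% in all, where 56.7% of all 10751 genes were called, 28.0% higher and 28.7% lower. The libraries of the groups did not overlap for 20 members, against 73.0% of all genes. The share of members called was near that of all genes. Mitochondrially encoded genes took 8.59% and 12.5% of counts in the libraries titled scrambled and 1.71% to 1.97% in those titled miR-145a-3p, and the part of this difference in the results was not tested. Cpt1b, Acad10, Ehhadh and Acot1 were below the filter. Cpt1b was at 1.78 and 2.92 CPM in the libraries titled scrambled and 0, 1.39 and 0.346 CPM in those titled miR-145a-3p, and Acot1 at 0.617 and 0.929 CPM against 0.929, 1.54 and 0.922 CPM.

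Of 6 tested carnitine shuttle members, 4 were lower and 0 higher in the libraries titled miR-145a-3p, where 28.7% of all genes were called lower. Cpt1a was at 25.8 and 22.6 CPM in those titled scrambled and 17.8, 16.0 and 14.8 CPM in those titled miR-145a-3p (log2 -0.58 ± 0.107, adjusted p = 0.00249). Cpt1c was at 6.46 and 8.10 CPM against 2.25, 2.33 and 3.42 CPM (log2 -1.45 ± 0.217, adjusted p = 0.000973), and fell below the filter without either scrambled library or miR-145a-3p library 3. Neither gene's groups overlapped. Slc25a20 (10.1 ± 0.310 against 7.11 ± 0.423 CPM, log2 -0.51, adjusted p = 0.0105) and Slc22a5 (11.1 ± 1.10 against 8.51 ± 1.03 CPM, log2 -0.39, adjusted p = 0.0478) were lower as well (SD, n = 2 and 3). With no filter on low counts both calls were lost (adjusted p = 0.0593 for Slc25a20 and 0.2 for Slc22a5). The Slc22a5 call was also lost without scrambled library 1 (0.149) or miR-145a-3p library 2 (0.139) or 3 (0.148). Another scaling, RLE (0.0513), and DESeq2 (0.0536) lost it too, and it held in 3 of 10 alternatives. Slc22a21, with which Slc22a5 shares 36.5% of its 31-base words, was also lower (log2 -0.97, adjusted p = 0.00145).

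Etfb and Acot2 were lower too. Etfb was at 61.6 and 71.6 CPM in libraries titled scrambled and 35.4, 30.2 and 30.7 CPM in those titled miR-145a-3p (log2 -1.05 ± 0.0938, adjusted p = 0.00014). Its reads may be split with Gm45233, which holds 62% of its 31-base words and whose level was not examined. Acot2 was at 6.75 and 6.50 CPM against 4.18, 3.22 and 2.96 CPM (log2 -0.94 ± 0.181, adjusted p = 0.00308). Etfa was at 102 and 93.3 CPM against 84.8, 86.1 and 82.8 CPM (log2 -0.21 ± 0.0590, adjusted p = 0.0177), and its call was lost without scrambled library 1 (0.0619) or miR-145a-3p library 1 (0.055) or 3 (0.0796), and with no filter on low counts (0.471).

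The 7 members called higher included 2 of 6 acyl-CoA dehydrogenases and 4 of 8 genes of the later steps, where 28.0% of all genes were called higher. Acad9 was at 46.5 and 40.8 CPM in libraries titled scrambled and 60.5, 62.2 and 60.3 CPM in those titled miR-145a-3p (log2 0.48 ± 0.0726, adjusted p = 0.00102). Hsd17b4 was at 36.9 and 34.0 CPM against 50.5, 47.7 and 48.7 CPM (log2 0.47 ± 0.0685, adjusted p = 0.000911). In both the groups lay apart. Hadha, Hadh, Echs1, Decr1 and Acads were higher by log2 0.28, 0.31, 0.34, 0.47 and 0.25 (adjusted p = 0.00277, 0.0104, 0.00628, 0.0337 and 0.0132). Decr1 lost its call without scrambled library 1 (0.0794) or miR-145a-3p library 2 (0.0965) or 3 (0.0962), and with DESeq2 (0.0584). Acads lost its call without miR-145a-3p library 2 (0.0501) or 3 (0.0522).

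**Figure D5:**
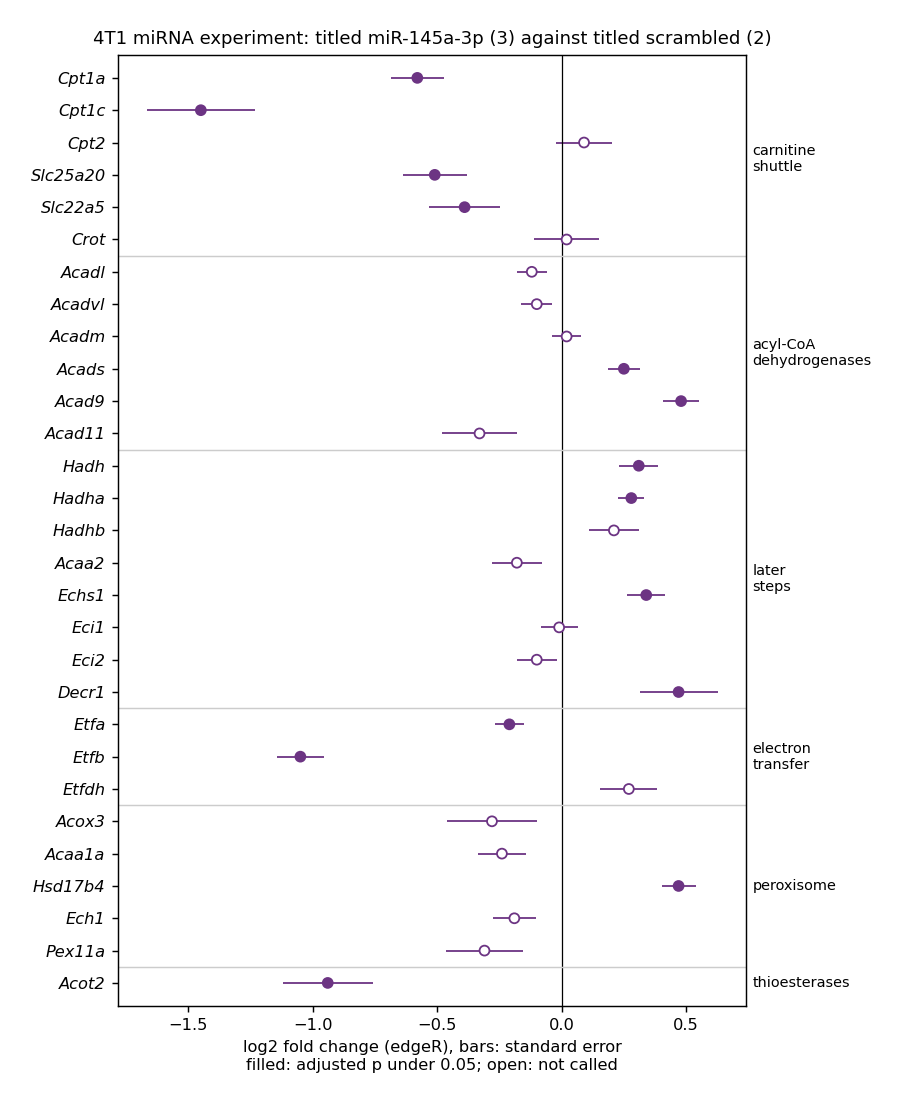
Log2 fold changes of the 29 tested members in the miRNA experiment, 3 libraries titled miR-145a-3p against 2 titled scrambled, ordered by step, with standard errors as bars and filled points for called genes. Cpt1c (-1.45) and Etfb (-1.05) lie farthest to the lower side, and Acad9 (0.48) is the highest.

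Genes around the pathway were read from 6 further lists. In culture, fatty acid uptake and activation, the step that makes acyl-CoA, had 1 of 10 tested genes higher and 3 lower with IR, and 2 higher and 3 lower with IS exosomes, where 13.6% of all genes were called with IR and 19.3% with IS. Slc27a1, a fatty acid transport protein, rose 1.48-fold with IR (adjusted p = 0.000451) and 1.73-fold with IS exosomes (adjusted p = 1.23e-05). Acsl3, an acyl-CoA synthetase, was 1.28-fold and 1.43-fold lower (adjusted p = 0.000466 and 1.01e-05). In the list of malonyl-CoA control 1 of 5 was higher and 1 lower with each exosome. Acaca, the carboxylase that makes malonyl-CoA, was 1.25-fold lower with IR and 1.19-fold lower with IS exosomes (adjusted p = 3.28e-05 and 0.000341), and Prkab1, a subunit of the kinase that inhibits it, 1.17-fold and 1.18-fold higher (adjusted p = 0.0156 and 0.00908).

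Against the same shares of all genes called, 13.6% with IR and 19.3% with IS exosomes, 2 of 9 regulators of oxidation genes in culture were higher and 1 lower with IR, and 1 higher and 2 lower with IS exosomes. Esrra rose 1.28-fold with IR (adjusted p = 0.000297) and 1.42-fold with IS exosomes (adjusted p = 7.63e-06). Ppargc1a, a coactivator of these genes, had a count of 0 in the untreated and IR exosome libraries. Other peroxisomal genes had 1 of 15 higher and 1 lower with IR and 2 higher with IS exosomes, among them the sterol carrier protein Scp2 in both (log2 0.30 and 0.31). Branched-chain and odd-chain oxidation had 0 of 14 called with IR and 1 higher with IS exosomes. Of 3 ketone body genes, Oxct1, which uses ketone bodies, was lower with IR exosomes (log2 -0.34, adjusted p = 0.000194), also against IS (log2 -0.35, adjusted p = 0.000815).

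In the brain IR libraries the coactivator Ppargc1a was at 27.2 ± 15.1 CPM, against 10.7 ± 1.82 CPM in control (SD, n = 5 each, 2.55-fold, adjusted p = 0.0045), and regulators of oxidation had 3 of 11 genes higher in IR and 0 called in IS, where 11.7% of all genes were called in IR and 6.46% in IS. Uptake and activation had 3 of 12 genes higher and 2 lower in IR and 1 higher in IS. Acsl1, an acyl-CoA synthetase, was 1.38-fold higher in IR (adjusted p = 0.00067) and 1.25-fold higher in IS (adjusted p = 0.0115), while Cd36 and Fabp5, which take up and bind fatty acids, were 1.72-fold and 1.69-fold lower in IR (adjusted p = 0.0481 and 0.0453).

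In the other brain lists the shares of all genes called were again 11.7% in IR and 6.46% in IS. The shares of the malonyl-CoA list (12.5% in IR) and the other peroxisomal list (5.26% in each) were near or below these. Acacb, the carboxylase at the mitochondrial membrane, was the 1 of 8 genes of malonyl-CoA control called in IR (log2 0.49, adjusted p = 0.0141). Catalase, Cat, was the 1 of 19 other peroxisomal genes called in IR, and it was lower (log2 -0.56, adjusted p = 0.00606). Phyh, which starts the oxidation of branched chains, was the 1 called in IS, and it was higher (log2 0.41, adjusted p = 0.00988). Branched-chain and odd-chain oxidation had 0 of 14 genes called in either comparison. In tumours 0 genes of the 6 lists were called. In the miRNA experiment the lists had 7 of 10, 3 of 5, 7 of 14, 5 of 14, 2 of 3 and 4 of 9 tested genes called, in the order uptake and activation, malonyl-CoA control, other peroxisomal, branched-chain and odd-chain, ketone bodies and regulators, where 56.7% of all genes were called.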

How the data were processed

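Per the labels' protocols and the series text, libraries were made with a stranded mRNA kit and sequenced as pairs. The authors deposited estimated counts per gene in 4 tables, made with RSEM for culture and brain and with salmon for tumours and miRNA, as the tables are named. The submitters' processing notes name Trimmomatic, STAR, featureCounts and DESeq2 and the builds GRCm38 (mm10) and GRCm39 (mm39). Neither labels nor headers say which build belongs to which table. Gene identifiers of the culture and brain tables were named through the tumour table, which named 52139 of 55487. Left unused were 3 culture columns that fit no sample. Libraries are numbered as in their titles, which matches the column numbers except that tumour control 4 is the column Control_5.

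Counts were rounded to whole numbers and, in each experiment, genes with at least 3 CPM in at least 3 libraries were tested with edgeR 4.0.16 (R 4.3.3), with TMM scaling, all groups of the experiment in the fit, quasi-likelihood tests and Benjamini-Hochberg adjustment over all genes tested at 0.05. The SE is the absolute log2 fold change over the root of F. The script was tested on simulated data. Samples were grouped by their labels, which call them biological replicates but do not say that they came from separate cultures or animals, so that p-values reflect the spread among these libraries alone, and this may be technical. No libraries were identical. Depth is the library total given with the data. Alternatives were DESeq2 1.42.0, other scalings, no filter, only the groups compared, a replicate block, leaving out each library, and, added after seeing the data, Acot1 and Acot2 counted as 1 gene. Every member is accounted for by step. Cpt1a, Cpt1b, Cpt1c, Acot1 and Acot2, and up to 3 called members a step by smallest adjusted p, were to be given in every library; the latter are so given in the experiments that called them and otherwise by range or not at all. Members, lists and tests were chosen with earlier results of these data known. Shared words of 31 bases were counted in GENCODE transcripts. The ketone body list in the brain is not reported here.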

Additional observations from a re-analysis of the deposited data

Results flagged for a closer look

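In groups of 4 or 5 libraries, 11 of 165 sets of values (6.67%) held 1 library whose gap to the nearest other exceeded Dixon's 95% value, where chance gives about 1 in 20. Cpt1b was at 22.6 CPM in IR tumour 4 against 0.840 to 5.12 CPM in the other IR tumours, and that library also had the highest sum of skeletal muscle markers, 11200 CPM. Control tumour 1 stood apart for 3 genes: Slc22a5 at 9.28 CPM (others 13.7 to 14.1), Acad10 at 9.06 CPM (others 6.90 to 7.24) and Acot2 at 4.15 CPM (others 5.80 to 5.99). Acadl was at 107 CPM in control tumour 2 (others 138 to 144) and at 140 CPM in brain control 5 (others 151 to 155). Brain control 1 stood apart for Hadh, at 56.1 CPM (others 46.2 to 49.1), and Etfdh, at 95.3 CPM (others 85.8 to 87.8). Acad11 was at 94.2 CPM in brain control 3 (others 80.2 to 81.9). Brain IS library 1 was highest for Hadhb, at 343 CPM (others 281 to 292), and Decr1, at 52.1 CPM (others 38.4 to 41.6).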

How the results depend on the processing

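Over all alternatives 0 called members changed direction, and 10 of 14 with IR exosomes (9 once Acot1 and Acot2 are counted together), 13 of 16 with IS exosomes and 1 of 3 between them (12 alternatives each), 4 of 6 for brain IR and 1 of 2 for brain IS (16 each) and 7 of 14 in the miRNA experiment (10) were called in each. Cpt1c there was called in the 7 alternatives that tested it. Leaving out 1 library gave 10 to 14 members called for IR and 13 to 15 for IS exosomes, 1 to 3 between them (1 without IR library 2), 4 to 6 for brain IR, 1 to 2 for brain IS (1 without control library 2, 4 or 5 or IS library 1), 0 to 1 for brain IR against IS (1 without IS library 2), 0 for tumours and 9 to 16 for miRNA (9 without miR-145a-3p library 3). Over all genes, brain IR against IS called 6, against 334 with no filter, 604 with DESeq2 and 0 to 1139 with 1 library left out, and tumours 0, against 124 with DESeq2, 1 with the replicate block and 0 to 1 with 1 library left out; the cause was not tested. Brain IR called 836 to 1803 and culture IR against IS 295 to 871 genes with 1 library left out. The replicate numbers gave no clear pairing of samples in culture and brain (correlations of deviations from -0.21 to 0.23) or in miRNA (-0.14 and -0.06). In tumours the correlations ran from 0.08 to 0.76, with 3 of 4 above 0.1 and 2 of 4 best matched to their own number. Number 4 there, at 0.08, set column Control_5 beside column IR_4, as did the replicate block. Whether the numbers pair the tumours cannot be told. As a block the replicate numbers moved the members called only for miRNA by more than 1.5 times, to 8. The block lost Acadvl (adjusted p = 0.0501) and Hadha (0.0564) in brain IR and Hadha (0.0575), Slc25a20 (0.0725), Acads (0.136), Decr1 (0.177), Etfa (0.195) and Slc22a5 (0.207) in miRNA. Hadha in brain IR was not called with upper quartile scaling (0.0643), no filter (0.132) or only the groups compared (0.0625) either. Precision in the miRNA experiment is limited by its 2 libraries titled scrambled.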
